A study of Mus musculus with 19 samples.

Results

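The glutamate and GABA receptor genes are the 40 genes, of 16233 in the table of all cells, whose symbols name subunits of AMPA, kainate, NMDA and delta receptors, metabotropic glutamate receptors, GABA-A receptors or GABA-B receptors. They comprise 4 AMPA, 5 kainate, 6 NMDA, 2 delta, 7 metabotropic glutamate, 14 GABA-A and 2 GABA-B genes. Single genes were taken by symbol, and the families were chosen with earlier results of these data known. Male C57BL/6J mice were the source of the tissue, the medial amygdala. Each of the 16 libraries analysed was made by Drop-seq, which tags every captured messenger RNA with a unique molecular identifier (UMI), after Act-Seq, a dissociation protocol built to limit transcription while tissue is taken apart. The groups were mice affected by seizure (2 libraries, 1 from mice of 9 weeks and 1 of 8 weeks), mice acutely stressed by immobilization (4 libraries, 2 of each age), mice exposed to odors (4 libraries, 2 of each age) and naive mice (6 libraries, all of 8 weeks). The labels name neither the agent behind the seizures nor the odors. They do not tie libraries to animals, and the p-values therefore describe spread among libraries, which may be technical.

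Glutamate is the main excitatory transmitter of the brain and GABA the main inhibitory one. AMPA, kainate and NMDA receptors are cation channels of 4 subunits that glutamate opens, and GABA-A receptors are chloride channels assembled mostly from alpha, beta and gamma subunits. Metabotropic glutamate receptors and GABA-B receptors act through G proteins. The medial amygdala, which processes chemosensory and social cues, is rich in GABA neurons, and its astrocytes and oligodendrocyte precursors carry receptors for both transmitters as well.

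The table of all cells holds 20679 cells and 35709950 UMIs, with 43 to 2189 cells and 116492 to 3723521 UMIs per library. The authors' class of each cell is part of its name. Neurons here are the 2444 cells of the authors' neuron table, which also assigns each to 1 of 16 clusters, N1 to N16. In the table of all cells 2293 of them carry the neuron class and 151 another class, 125 of these astrocyte; all were kept as neurons. The 6206 cells of the authors' neuron class outside the neuron table formed a class of their own. Levels are CPM, the UMIs of a gene scaled to 1e6 UMIs of a class in a library with at least 10 cells of it, as mean ± SD over libraries. The UMIs count molecules and were not divided by transcript length. Markers set the classes apart, though not cleanly. Oligodendrocyte precursors had a median summed level of 7777 CPM over 6 precursor markers, against 294 CPM in neurons. The 8 neuron markers summed to a median of 825 CPM in astrocytes and 1079 CPM in precursors, against 5286 CPM in neurons. Precursors also held oligodendrocyte RNA: 8 oligodendrocyte markers summed to 7952 to 30265 CPM (median 18398) there. The medians were 138321 CPM in oligodendrocytes and 3516 CPM in neurons. The part of such RNA in the precursor levels below was not tested. Cells of the neuron class were not free of astrocyte RNA: 8 astrocyte markers summed to 24657.5 to 28379 CPM (median 26787) in astrocytes and still to 7965 to 12303 CPM (median 10987) in neurons, with none of the 8 at 0. The part of this RNA in the neuron levels below was not tested. 20 cell barcodes occurred in more than 1 library.

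Together the 40 genes gave 95923 UMIs, 0.269% of all UMIs, and single genes 20 (the least) to 26126 (Gria2). Precursors held 3861 ± 533 CPM of them, astrocytes 4075 ± 286 CPM and neurons 3403 ± 857 CPM (SD, n = 15, 15 and 14 libraries). The medians were 3848, 4009 and 3184 CPM, and the highest neuron library stood at 6261 CPM. The make-up differed between these classes. Ionotropic glutamate receptor genes summed to 2958 ± 530 CPM in precursors, 2483 ± 275 CPM in astrocytes and 1694 ± 361 CPM in neurons. GABA-A genes summed to 479 ± 103, 722 ± 38.3 and 836 ± 303 CPM in the same order. Their medians were 491, 711 and 729 CPM, so astrocytes and neurons were about level. The neuron mean is raised by a highest library at 1831 CPM. The other classes held less of the 40 genes: 782 ± 115 CPM in oligodendrocytes, 361 ± 111 in microglia, 270 ± 109 in endothelial cells (n = 15 each) and 272 ± 141 in mural cells (n = 12).

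By mean level, the highest of 7 classes was neurons for 16 genes, precursors for 14, astrocytes for 8, oligodendrocytes for 1 and mural cells for 1. The ranges of mean ± SD of the highest class and the next were separate for 14 genes and overlapped for 26, so many of these orders lie within the spread between libraries. The classes were made by clustering cells on all genes, so levels in classes and clusters are descriptions and carry no test. Neurons outside the neuron table had a median ratio of 0.937 to those in it over the 40 genes.

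**Figure D1:**
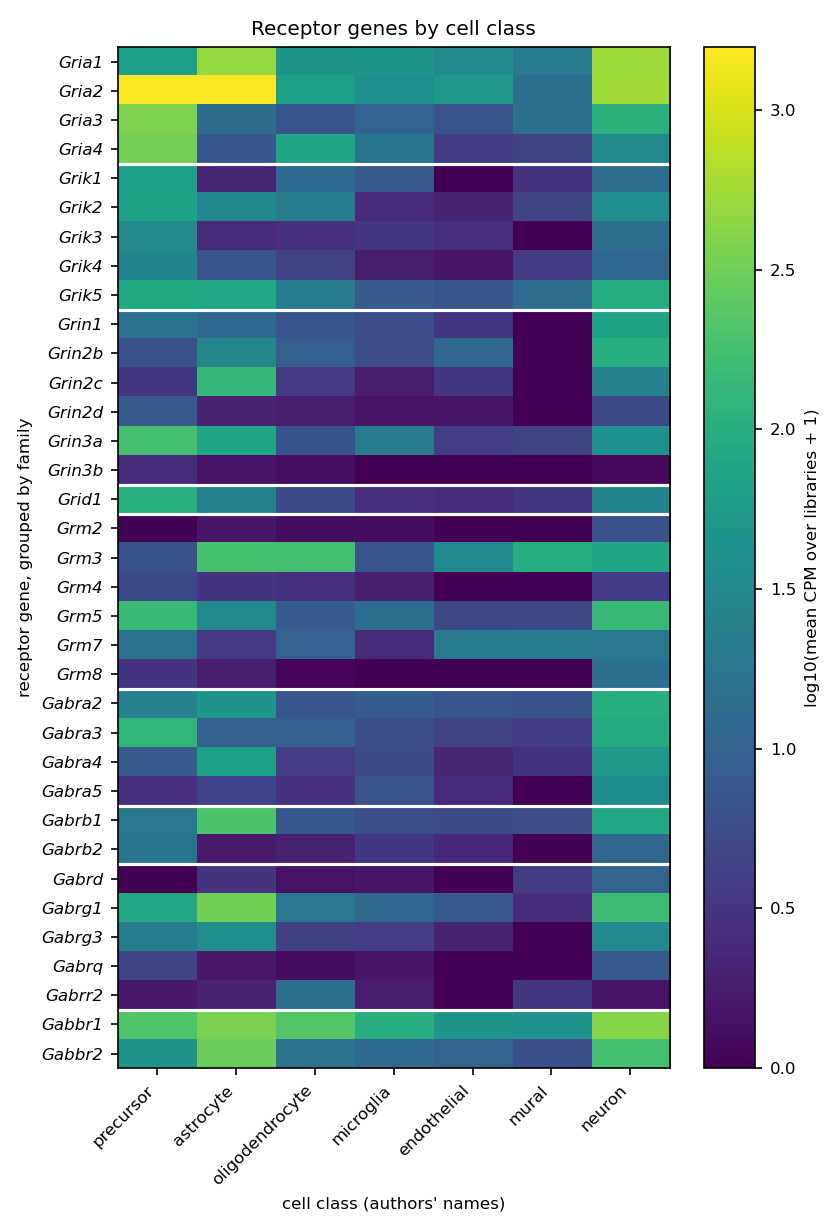
Mean level of the receptor genes described here, grouped by family (rows), in 7 classes of cells (columns), as log10 of the mean CPM over libraries plus 1 (colour). Gria2 is brightest in precursors and astrocytes, at 1555 and 1571 CPM, and Gabbr1 is visible in every column, from 40.1 CPM in mural cells to 416 CPM in neurons.

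To show the DNA near the starts of genes led by different classes, the 250 bases before a RefSeq start (GRCm38.p6, the build of mm10) are given. The genes are 3 highest in astrocytes, 1 highest in precursors and 1 highest in neurons. The windows read 5′ to 3′ on the gene's strand and stop at the base before that start. The RefSeq gene Grin2c reaches to chr11:115267297, so the last bases of its window lie inside the gene. Capitals mark matches, on either strand, to 4 motifs searched: TATAAA (the TATA box), GGGCGG (the GC box), TTGGCA (a nuclear factor I half-site) and AACAAT (a Sox-type motif).
Grin2c, astrocytes, chr11:115267244-115267493, minus strand: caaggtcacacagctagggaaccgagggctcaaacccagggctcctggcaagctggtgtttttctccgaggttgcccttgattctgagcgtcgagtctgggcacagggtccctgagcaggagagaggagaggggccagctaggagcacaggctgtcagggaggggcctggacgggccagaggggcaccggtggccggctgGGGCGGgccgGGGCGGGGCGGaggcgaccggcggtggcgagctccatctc
Gabrg1, astrocytes, chr5:70842618-70842867, minus strand: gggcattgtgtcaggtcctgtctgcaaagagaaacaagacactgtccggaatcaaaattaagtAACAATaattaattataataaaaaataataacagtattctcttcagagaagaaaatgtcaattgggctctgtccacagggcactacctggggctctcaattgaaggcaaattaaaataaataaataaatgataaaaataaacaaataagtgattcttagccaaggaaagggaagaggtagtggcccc
Grm3, astrocytes, chr5:9725353-9725602, minus strand: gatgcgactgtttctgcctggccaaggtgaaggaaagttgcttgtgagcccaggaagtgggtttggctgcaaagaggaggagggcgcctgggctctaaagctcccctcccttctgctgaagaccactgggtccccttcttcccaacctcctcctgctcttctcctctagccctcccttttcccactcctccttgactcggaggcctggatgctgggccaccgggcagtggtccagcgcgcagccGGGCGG
Gria4, precursors, chr9:4796235-4796484, minus strand: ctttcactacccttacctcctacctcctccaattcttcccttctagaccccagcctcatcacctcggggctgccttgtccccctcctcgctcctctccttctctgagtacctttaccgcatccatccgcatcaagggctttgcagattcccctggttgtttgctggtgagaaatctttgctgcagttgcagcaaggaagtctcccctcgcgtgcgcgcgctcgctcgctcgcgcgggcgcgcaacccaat
Grin1, neurons, chr2:25319188-25319437, minus strand: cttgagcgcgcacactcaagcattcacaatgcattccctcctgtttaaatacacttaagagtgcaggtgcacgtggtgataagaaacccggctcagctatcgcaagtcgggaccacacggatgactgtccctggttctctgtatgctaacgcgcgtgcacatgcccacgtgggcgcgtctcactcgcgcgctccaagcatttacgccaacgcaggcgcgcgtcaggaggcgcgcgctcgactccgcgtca

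By mean level Grm3 was about as high in oligodendrocytes (171 CPM) as in astrocytes (181 CPM). The 3 windows of the genes highest in astrocytes were unlike each other. Those of Grin2c and Grm3 held 68.8% and 62.4% G and C. The GC box had 3 matches in that of Grin2c, 2 of them overlapping by a base, and 1 in that of Grm3. The 3 matches of Grin2c begin 50, 40 and 35 bases before the end of its window, in the part inside the RefSeq gene. The window of Gabrg1 held 35.6% G and C and 1 Sox-type match. The windows of Gria4 and Grin1, both with 58.8% G and C, held none of the 4 motifs as spelled here. Among all 32851 promoters of the table, the same window holds the GC box in 32.7%, the TATA box in 12.4%, the nuclear factor I half-site in 12.3% and the Sox-type motif in 9.42%. A match is a run of letters and not a shown binding site.

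AMPA receptors carry most fast excitatory transmission in the brain. Gria2, whose edited subunit keeps AMPA channels closed to calcium, stood at 1555 ± 269 CPM in precursors (n = 15) and 1571 ± 218 CPM in astrocytes (n = 15), against 563 ± 246 CPM in neurons (n = 14). The lowest, median and highest library were at 1214, 1479 and 2107 CPM in precursors, 1273, 1576 and 2034 CPM in astrocytes and 389, 496 and 1363 CPM in neurons, and both ratios to neurons exceeded 1 in 14 of 14 libraries. Gria1 split the glial classes, with 62.3 ± 31.2 CPM in precursors, 486 ± 81.4 CPM in astrocytes and 538 ± 51.0 CPM in neurons. Gria3 and Gria4 did the reverse. Gria3 had 377 ± 94.1 CPM in precursors, 12.5 ± 7.5 in astrocytes and 113 ± 83.7 in neurons. Gria4 had 337 ± 92.4 CPM in precursors, 6.5 ± 3.1 in astrocytes, 74.4 ± 24.9 in oligodendrocytes and 32.8 ± 20.5 in neurons, and the precursor level was 9.75 times the neuron level over summed UMIs.

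Shares within the AMPA family do not depend on the total. Precursors gave 2.67 ± 1.19% of their AMPA UMIs to Gria1, 66.7 ± 3.99% to Gria2, 16.2 ± 3.17% to Gria3 and 14.4 ± 3.21% to Gria4. Astrocytes gave 23.4 ± 3.27% to Gria1 and 75.6 ± 3.20% to Gria2, with 0.603 ± 0.333% and 0.322 ± 0.192% left for Gria3 and Gria4. Oligodendrocytes, the myelin-forming descendants of precursors, gave 37.5 ± 9.88% to Gria4, from 32 or more AMPA UMIs in each of 13 libraries, against 14.4% in precursors. Neurons divided theirs almost evenly between Gria1 (44.5 ± 6.39%) and Gria2 (44.0 ± 5.97%). In the lowest precursor library Gria2 still took 59.8%, above the highest neuron library, at 57.1%.

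**Figure D2:**
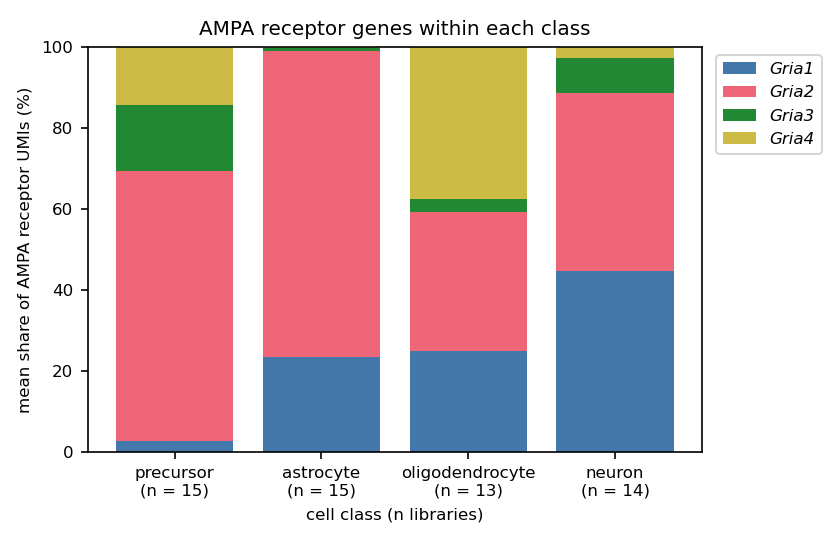
Mean share of the UMIs of the 4 AMPA receptor genes taken by each (stacked bars, percent) in precursors, astrocytes, oligodendrocytes and neurons, over 15, 15, 13 and 14 libraries with at least 10 AMPA UMIs. Gria1 is the smallest part in precursors, at 2.67%, and Gria3 and Gria4 together are under 1 percent in astrocytes.

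Kainate receptors modulate release and excitability. Their 5 genes were low throughout: in neurons Grik5, which codes for a high-affinity subunit, was the highest with 93.9 ± 46.8 CPM, and Grik4 the lowest with 10.6 ± 7.3 CPM. Precursors led in 4 of the 5. Grik1 had 64.4 ± 36.7 CPM in precursors against 12.9 ± 9.0 in neurons, the one kainate gene whose ranges were separate. Grik2 (70.5 ± 47.5 against 36.3 ± 27.8 CPM), Grik3 (33.2 ± 21.9 against 13.1 ± 9.9) and Grik4 (27.0 ± 17.5 against 10.6 ± 7.3) overlapped in precursors and neurons. Neto1 and Neto2, auxiliary subunits of kainate receptors, had 74.9 ± 28.8 and 38.3 ± 35.4 CPM in precursors, against 27.0 ± 11.9 and 17.0 ± 12.4 CPM in neurons.

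NMDA receptors are coincidence detectors that need glutamate, a co-agonist and depolarization. Grin1, the subunit every NMDA receptor needs, was highest in neurons: 14.6 ± 10.7 CPM in precursors and 10.8 ± 3.9 in astrocytes, against 71.1 ± 23.9 CPM in neurons. Grin2b was likewise a neuron gene, with 5.5 ± 8.5, 27.6 ± 10.5 and 101 ± 40.4 CPM. The other NMDA genes of the table of all cells, which does not hold Grin2a, were not. Grin2c reached 132 ± 23.9 CPM in astrocytes, where the lowest library had 91.4 CPM, against 25.1 ± 10.5 CPM in neurons, where the highest had 38.6 CPM. Grin3a, whose subunit lowers calcium entry through NMDA receptors, had 177 ± 40.7 CPM in precursors and 75.1 ± 16.04 in astrocytes, against 42.0 ± 16.8 CPM in neurons. Grin2d (6.9 ± 6.6 CPM in precursors against 4.0 ± 3.2 in neurons) and Grin3b (1.5 ± 4.3 against 0.2 ± 0.5) were near the limit of counting, and Grin3b was the lowest NMDA gene in neurons. The level of Grin1 lay below that of a partner subunit in all 3 classes, Grin3a in precursors, Grin2c in astrocytes and Grin2b in neurons. The delta receptor gene Grid1, whose product binds cerebellins at synapses, had 106 ± 47.5 CPM in precursors, against 26.5 ± 6.8 CPM in neurons.

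Among metabotropic glutamate receptors, the 2 most abundant had nearly opposite places in glia. Grm5, a Gq-coupled receptor, had 145 ± 49.4 CPM in precursors, 30.9 ± 13.2 in astrocytes and 147 ± 70.0 in neurons. Grm3, a Gi-coupled receptor, had 5.4 ± 10.4 CPM in precursors, 181 ± 56.8 in astrocytes, 171 ± 48.2 in oligodendrocytes and 95.7 ± 65.7 in mural cells, against 78.0 ± 30.7 CPM in neurons. Grm3 was at 0 in the median precursor library and at 152 CPM in the median oligodendrocyte library. Grm8 (13.7 ± 21.9 CPM, median 6.34, and 8.199 ± 7.66 without naive 5, at 85.2) and Grm2 (5.1 ± 3.3) were highest in neurons, and Grm4 was the lowest there with 2.7 ± 2.5 CPM against 4.1 ± 5.3 in precursors. Grm7, a presynaptic receptor, had 19.5 ± 24.1 CPM in mural cells and 16.8 ± 9.96 in neurons, with medians of 11.7 and 16.3 CPM, so its leading class is not resolved.

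GABA-A genes of the mouse lie mostly in gene clusters, and those of chromosomes 5 and X behaved differently. On chromosome 5 (chr5:70751047-72149572) lie Gabrg1, Gabra2, Gabra4 and Gabrb1, and on chromosome X (chrX:72432676-72842607) Gabra3 and Gabrq. The summed level of the chromosome 5 genes in astrocytes was a median of 1.95 times that in neurons of the same library, and above 1 in 13 of 14 libraries. For chromosome X the median ratio was 0.0961, with no library above 1. Precursors had the opposite order, with 0.401 for chromosome 5 and no library above 1, and 1.41 for chromosome X, above 1 in 10 of 14 libraries. The chromosome X sum is mostly Gabra3; Gabrq alone, over summed UMIs, was at 0.467 of its neuron level in precursors and higher there in 2 of 14 libraries.

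**Figure D3:**
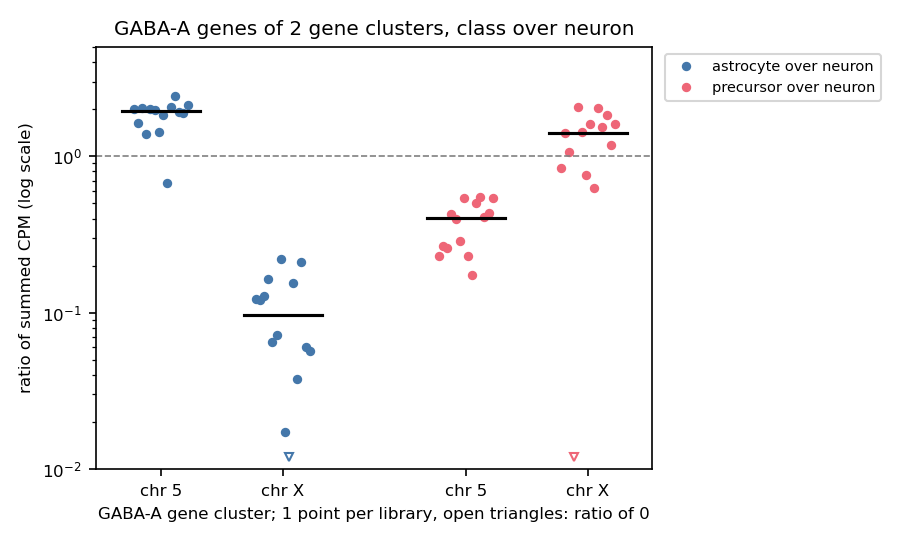
Summed CPM of the GABA-A genes of the chromosome 5 and X gene clusters in astrocytes (left pair of columns) or precursors (right pair), divided by that in neurons of the same library (log axis), with 1 point per library and a line at the median. In astrocytes the chromosome 5 genes sit at a median of 1.95 and the chromosome X genes at 0.0961; an open triangle marks a library with a ratio of 0.

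Within the chromosome 5 cluster single genes went their own way. Gabrg1 (325 ± 33.3 CPM in astrocytes, 152 ± 70.2 in neurons) and Gabrb1 (192 ± 21.4 in astrocytes, 80.6 ± 41.2 in neurons) were higher in astrocytes in 13 and 14 of 14 libraries. Gabra4 (64.2 ± 11.03 in astrocytes, 51.6 ± 15.5 in neurons) lay within the spread. Gabra2, a principal alpha subunit of the amygdala, was lower in astrocytes in 13 of 14 libraries, at 45.05 ± 17.9 CPM against 104 ± 105 CPM in neurons, where the median was 62.7 CPM. Elsewhere, Gabrg3 was about level (36.3 ± 12.8 CPM in astrocytes, 32.9 ± 18.7 in neurons) while Gabra5, an extrasynaptic alpha subunit, had 3.4 ± 2.9 CPM in astrocytes against 34.8 ± 7.5 CPM in neurons. Gabra3 had 122 ± 56.2 CPM in precursors and 8.9 ± 6.1 in astrocytes, against 91.9 ± 13.9 CPM in neurons. Gabrb2 was the lowest beta gene in neurons, with 16.4 ± 17.8 CPM in precursors and 0.7 ± 1.2 in astrocytes, against 10.8 ± 5.4 CPM in neurons.

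The remaining GABA-A genes were rare. Gabrd, an extrasynaptic subunit, had 9.8 ± 13.7 CPM in neurons and Gabrq 7.1 ± 5.6 CPM. Gabrr2, a rho subunit best known from the retina, was the one receptor gene led by oligodendrocytes, with 13.4 ± 10.8 CPM against 0.5 ± 1.0 CPM in neurons, where it was the lowest of its group. The GABA-B receptor is an obligate pair of Gabbr1 and Gabbr2. Gabbr2 had 44.6 ± 25.1 CPM in precursors, 292 ± 48.3 in astrocytes and 15.6 ± 7.8 in oligodendrocytes, against 173 ± 54.6 CPM in neurons. Gabbr1 had 207 ± 68.3, 357 ± 44.7 and 217 ± 48.3 CPM in those glial classes and 102 ± 27.8 in microglia, against 416 ± 62.6 CPM in neurons. In oligodendrocytes Gabbr1 was therefore far above its partner.

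These glial levels can be set beside those of neuron markers in the same cells. The 8 neuron markers stood at 0.132 to 0.190 of their neuron level in astrocytes, and 24 of the 40 receptor genes exceeded the highest of these ratios there, 14 of them exceeding the neuron level itself. In precursors the markers ranged from 0.0301 to 0.681, and 21 receptor genes exceeded 0.681, with 18 above the neuron level. In microglia the markers were at 0.0543 to 0.0733 and the median receptor gene at 0.0905. In mural cells 4 genes exceeded the highest marker ratio: Grm3 from 38 UMIs, Grm7 from 9, and Gabrd and Gabrr2 from 1 each. These are counts of a pooled ratio and carry no test. The same counts over all genes were not made, so these do not set the receptor genes apart. Those above the neuron level in astrocytes include Grin3b, with 7 UMIs against 2 in neurons, and Gabrr2, with 13 against 4.

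Genes that go with the receptors were read from 2 lists. Of 44 genes for auxiliary subunits and scaffolds, 43 had levels, and the highest class was neurons for 25, precursors for 14, oligodendrocytes for 2, astrocytes for 1 and endothelial cells for 1. Cacng4, an auxiliary subunit of AMPA receptors, had 1097 ± 217 CPM in precursors, 69.2 ± 19.3 in astrocytes and 131 ± 64.2 in neurons. Cacng2, the auxiliary subunit stargazin, was a neuron gene (1.9 ± 5.2 CPM in precursors, 11.9 ± 7.2 in astrocytes, 85.5 ± 22.6 in neurons), as was Dlg4, the scaffold PSD-95 (23.4 ± 16.6, 40.3 ± 12.97 and 169 ± 38.1 CPM). Gphn, the gephyrin scaffold of inhibitory synapses, had 183 ± 73.3 CPM in precursors, 149 ± 31.6 in oligodendrocytes and 120 ± 25.98 in astrocytes, against 73.7 ± 29.1 CPM in neurons. Shisa9, another AMPA auxiliary gene, was the one led by astrocytes (194 ± 40.3 CPM against 87.3 ± 28.2 in neurons). Of 14 genes for transmitter synthesis and transport, 13 had levels, with 6 highest in neurons, 5 in astrocytes and 2 in precursors.

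The 16 neuron clusters held 91 to 271 cells and 242766 to 1019055 UMIs each. Clusters N1 to N8 carried Gad2, the GABA-synthesizing enzyme, at 354 to 588 CPM; N9 carried the vesicular glutamate transporter Slc17a6 at 590 CPM; N10 and N11 carried Slc17a7, another such transporter, at 187 and 108 CPM. N12 had both Gad2 (198 CPM) and Slc17a7 (103 CPM), and N13 to N16 had 7.27 to 27.5 CPM of Gad2, 36.1 to 85.4 of Slc17a6 and 8.83 to 27.4 of Slc17a7. Cluster levels are UMIs summed over libraries with exact Poisson 95% intervals, which cover counting error alone; 3 to 12 libraries held 10 or more cells of a cluster. The astrocyte markers summed to 1631 CPM in N12, 2233 in N9, 5725 in N11 and 7701 in N10, and to 10736 to 14395 CPM in the other 12 clusters.

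N12 was the highest cluster for 21 of the 40 genes, and for 19 when the mean over libraries was taken. How many of all genes are highest in N12 was not computed, so these counts do not set the receptor genes apart. N12 had the fewest UMIs of the clusters, 242766, and only 3 libraries held 10 or more of its 103 cells. Grin1 had 527 CPM there (interval 440 to 627), against 119 in N9, the next highest, and 60.0 in the median cluster. By library, Grin1 in N12 was at 341 CPM in seizure 1, 897 in immobilization 1 and 699 in naive 1. In the annotation (GENCODE M21, GRCm38) exons of Grin1os lie on the opposite strand over the last 1000 bases of Grin1, and no source used here says if strand entered the counting, so reads of the pair cannot be told apart. The same limit holds for Grin3b, with exons of Tmem259 there, and for Grm2, with exons of Gm28111. By the ratio of the highest cluster to the median, Grin1, Grik2, Grm7, Gria3, Grik5 and Gria4 were among the leading genes of 100 or more UMIs, and these peaked in N12. Grik5 had 453 CPM in N12 and 76.4 in the median cluster, Gria3 507 and 82.2, Grik2 165 and 19.8, Gria4 136 and 28.6, and Grm7 86.5 and 11.6.

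Outside N12 the Slc17a6 cluster N9 was the highest for 10 of the 40 genes, again with no share over all genes computed. Among them, Gabrb2 was at 29.8 CPM in N9 (13.6 to 56.6, from 9 UMIs), against 10.6 in the median cluster. Gria2 was at 1011 CPM in N9 (900.4 to 1131), the second highest after N12, against 442 in the median cluster. The Slc17a7 clusters led in an alpha subunit: Gabra3 was at 237 CPM (193 to 289) in N10 and 189 (145 to 241) in N11, against 85.8 in the median cluster. Gabrd was highest there as well, with 16.8 CPM in N10 and 32.9 (16.4 to 58.9) in N11, from 7 and 11 UMIs.

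Gria1 set 2 of the GABA clusters apart. It was at 13.9 CPM (3.79 to 35.6, from 4 UMIs) in N5 and 43.7 CPM (24.97 to 70.9, from 16 UMIs) in N7, against 259 (N2) to 815 CPM (N8) in the other 14 clusters. Its N5 values by library were 27.2 CPM in seizure 1, 0 and 47.1 CPM in immobilization 1 and 2, 0 in odor 1 and 0 in naive 1. In N7 they ran from 0 to 97.1 CPM over 7 libraries. Of the other clusters rich in Gad2, the libraries of N2 ran from 153 to 268 CPM, those of N1 from 204 to 466.4 CPM and those of N3, N4, N6 and N8 from 561 CPM upward, so none of these 6 overlapped with N5 or N7. Outside them N9 did, with 68.4 CPM in naive 1, and N14 came close, with 97.4 CPM in naive 2. Gria2 did not share the gap, at 351 CPM in N5 and 404 in N7 against 442 in the median cluster, nor did the astrocyte markers, at 12229 and 10969 CPM in N5 and N7.

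**Figure D4:**
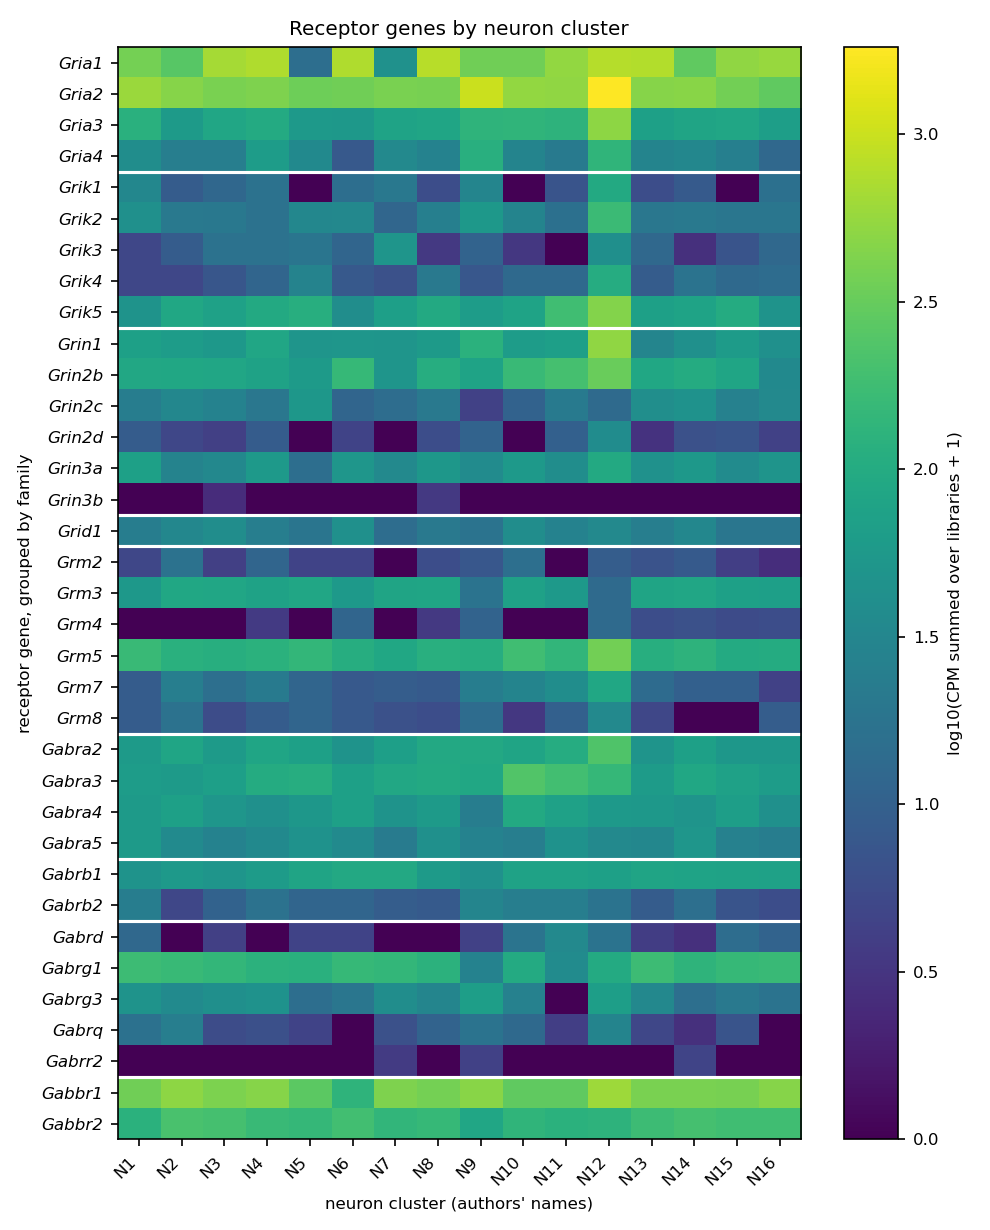
Level of the receptor genes described here, grouped by family (rows), in neuron clusters N1 to N16 (columns), as log10 of the CPM summed over libraries plus 1 (colour). N12 is the brightest column for Grin1, at 527 CPM, and Gria1 is dark in N5 and N7, at 13.9 and 43.7 CPM.

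Across the 16 clusters the 8 genes led by astrocytes were divided in how they ran with the astrocyte markers. Spearman's rho with the summed marker level was 0.78 for Grin2c, 0.76 for Gabbr2, 0.70 for Gabrg1, 0.63 for Grm3, 0.19 for Gabrb1, -0.13 for Gabra4, -0.34 for Gabrg3 and -0.62 for Gria2, the most abundant. It was -0.83 for Gabrb2 (n = 16 clusters, which share libraries). These are descriptions with no p. In N9 and N12, the clusters lowest in astrocyte markers, Grm3 had 16.6 and 12.4 CPM, Grin2c 3.31 and 12.4 CPM, and Gabrg1 26.5 and 98.9 CPM, against cluster medians of 72.7, 22.1 and 136 CPM.

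No receptor gene passed the test's threshold after seizure, immobilization or odor in any class. UMIs summed per library and class were tested with edgeR's quasi-likelihood test at a Benjamini-Hochberg adjusted p of 0.05. A filter on low counts left 30 of the 40 genes in neurons, 28 in neurons outside the table, 23 in astrocytes, 15 in precursors, 12 in oligodendrocytes, 4 in microglia, 1 in endothelial cells and 0 in mural cells, 113 pairs of gene and class in all. The count past the threshold was 0 of 113 after seizure, where 0.278% of all tested pairs passed, 0 of 113 after immobilization (0.782% of all), and 0 of 113 after odor (0.253% of all). At an unadjusted p of 0.05, 14, 10 and 12 of the 113 passed, or 12.4%, 8.85% and 10.6%, beside 4.85%, 6.74% and 6.21% of all tested pairs. DESeq2 called none in any of the 3 comparisons. By class, the share of all genes past the threshold was 0.102% after seizure, 0.0795% after immobilization and 0.125% after odor in neurons, and 0.116%, 0.0812% and 0.058% in neurons outside the table. It was 0.466%, 1.51% and 0.656% in astrocytes, 0.134%, 0.9% and 0.524% in oligodendrocytes, and 0.431%, 1.46% and 0.0923% in microglia. In precursors it was 0.122% after seizure, 0% after immobilization and 0.0204% after odor, in endothelial cells 0.63%, 1.76% and 0%, and in mural cells 0.686%, 0% and 0%. All 3 comparisons share the naive libraries, so their values are not independent.

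In neurons the few genes with a low unadjusted p all lay below naive: 3 of 30 after seizure (3.12% of all genes), 6 after immobilization (4.47%) and 5 after odor (6.47%). The median log2 fold change of the 30 genes was -0.06 after seizure, -0.13 after immobilization and -0.12 after odor, beside 0.00, -0.01 and 0.00 for all 8808 genes, with 18, 19 and 19 of 30 lower. Gabra2 had the lowest p in each. It was at 73.4 and 46.6 CPM after seizure, at 50.2, 46.1, 53.9 and 217 CPM after immobilization and at 52.1, 39.2 and 55.8 CPM after odor, against 69.5, 85.6, 153, 82.5 and 426 CPM in naive libraries. The odor libraries lay below every naive one; the immobilization and seizure libraries overlapped with them, and 217 and 426 CPM came from the libraries with 15 and 10 neurons. The log2 fold changes were -0.72 ± 0.31 (SE; edgeR adjusted p 0.999) after seizure, -0.94 ± 0.29 (0.487) after immobilization and -1.05 ± 0.30 (0.209) after odor. The seizure value was -1.17 without seizure 1, -0.45 without naive 3 and -0.31 with the replicate number as a block.

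Grin1 behaved likewise in neurons. It was at 62.8 and 56.9 CPM after seizure, 76.0, 46.1, 73.2 and 81.2 after immobilization and 55.4, 45.8 and 54.1 after odor, against 140.3, 62.8, 73.8, 82.5 and 85.2 CPM in naive libraries. The odor libraries were again below all 5 naive ones, with a log2 of -0.78 ± 0.26 (edgeR adjusted p 0.389), which became -0.44 ± 0.24 (0.9995) without cluster N12, an alternative chosen after seeing the data. It was -0.43 without naive 1. After seizure and immobilization Grin1 had log2 values of -0.57 and -0.51, which were -0.22 and -0.15 without naive 1, and the immobilization value was -0.28 without immobilization 2.

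Grik2, Grik5, Gria3 and Gria4 were also among the genes of lowest p in neurons. Grik2 averaged 19.2 ± 12.5 CPM after seizure (n = 2) and 18.6 ± 3.0 after odor (n = 3), against 48.2 ± 20.8 CPM in naive libraries (n = 5), with log2 values of -0.82 ± 0.40 and -1.07 ± 0.39 (edgeR adjusted p 0.999 and 0.478). Its seizure and odor libraries did not overlap with the naive ones, but the seizure value was -1.88 without seizure 1 and -0.46 without seizure 2. Gria4 had 24.2 ± 4.2 CPM after odor against 40.4 ± 34.4 in naive libraries (log2 -0.80 ± 0.36, adjusted p 0.702 by edgeR). The groups overlapped, and without naive 4, at 94.8 CPM, the naive mean was 26.8 ± 18.6 CPM and the log2 -0.47. Gria3 had 66.0 ± 26.0 CPM after immobilization against 160.3 ± 129 in naive libraries, and these overlapped (log2 -0.57, edgeR adjusted p 0.962). Without naive 5, at 383 CPM from 9 UMIs, the naive mean was 104.6 ± 39.1 CPM; the log2 of Gria3 was -0.36 without naive 1 and -0.16 without clusters N12 to N16. Grik5 had a log2 of 0.39 after seizure, 0.20 without seizure 1, 0.22 without naive 3 and 0.59 without naive 1.

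In astrocytes 5 of 23 genes had an unadjusted p under 0.05 after seizure (6.37% of all genes), 3 after immobilization (9.67%) and 4 after odor (8.37%). The lowest adjusted p among them was that of Grm3 after odor. Grm3, singled out after its values were seen, was at 146, 142, 134 and 131 CPM after odor, against 183, 209, 191, 194 and 344 CPM in naive libraries. The groups did not overlap, and the log2 fold change was -0.59 ± 0.16 (edgeR adjusted p 0.0603; 0.0665 by DESeq2). After immobilization it was at 132, 162, 166 and 255 CPM and after seizure at 190 and 139.8 CPM, both overlapping with naive, with log2 values of -0.40 ± 0.15 and -0.33 ± 0.18 (edgeR adjusted p 0.284 and 0.827). All naive libraries came from mice of 8 weeks; with age as a covariate the odor value was -0.71 ± 0.18 (0.0537). The summed astrocyte markers of these cells ranged from 25947 to 26787 CPM after odor and from 24657.5 to 28379 CPM in naive libraries.

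**Figure D5:**
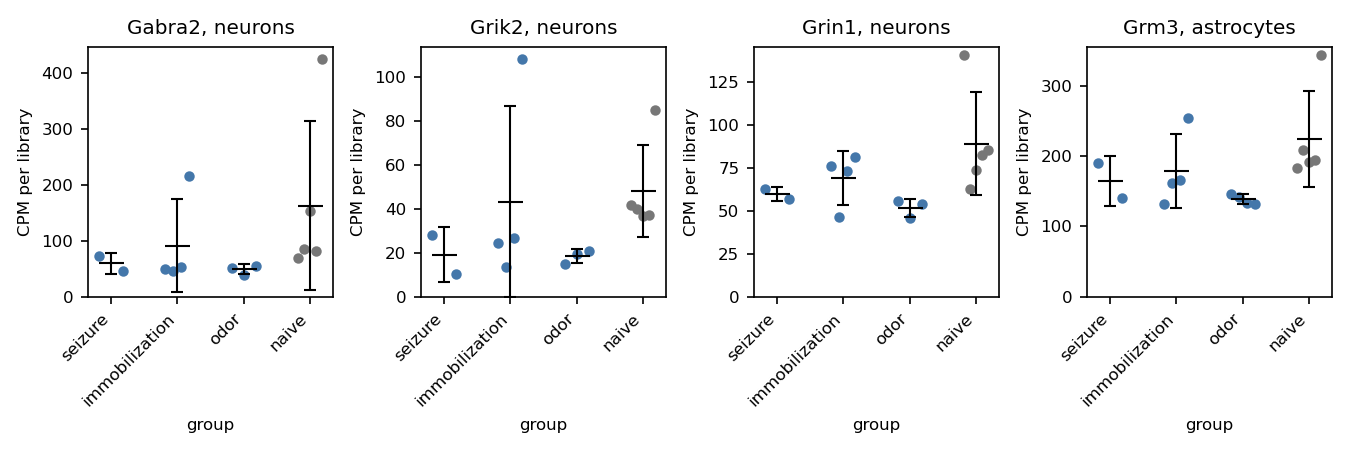
CPM per library (points) with mean and SD (bars) of Gabra2, Grik2 and Grin1 in neurons and Grm3 in astrocytes after seizure, immobilization and odor and in naive mice. The highest naive points of Gabra2, Grik2 and Grm3, at 426, 85.2 and 344 CPM, are all from naive 5, with 10 neurons and 93 astrocytes.

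The lists of companion genes were chosen with earlier results of these data known. None of the auxiliary and scaffold genes tested passed the threshold in any comparison. Of the 44, those tested were 33 in neurons, 32 in astrocytes, 18 in oligodendrocytes, 18 in precursors, 10 in microglia and 4 in endothelial cells. Of the 14 genes of transmitter synthesis and transport, 0 of 13 tested passed in neurons. Glul, the glutamine synthetase that clears glutamate, rose in astrocytes after immobilization and odor, to 4524 ± 419 and 4424 ± 232 CPM (n = 4 each), against 3122 ± 356 CPM in naive libraries (n = 5). The log2 values were 0.52 ± 0.10 and 0.49 ± 0.10 (edgeR adjusted p 0.00103 and 0.00503), where 1.51% and 0.656% of all astrocyte genes passed. In microglia Glul rose to 1847 ± 210 CPM after seizure (n = 2) and 2031 ± 679 after immobilization (n = 4, 1 of them within the naive range), against 1105 ± 142 CPM in naive libraries (n = 5; edgeR adjusted p 0.0103 and 1.37e-05, with 0.431% and 1.46% of all microglial genes passing).

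Gad2, a neuron gene, rose in astrocytes after immobilization and odor, to 42.4 ± 8.1 and 51.1 ± 14.1 CPM (n = 4 each) against 18.4 ± 11.3 CPM in naive libraries (n = 5; edgeR adjusted p 0.0331 and 0.00446). With DESeq2 and with the replicate number as a block the immobilization call was lost (adjusted p 0.152 and 0.0807). The 8 neuron markers summed to 750 to 913 CPM in astrocytes after immobilization and 764 to 1111 CPM after odor, against 406 to 851 CPM in naive libraries, and their part in the rise was not tested.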

How the data were processed

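The authors deposited unnormalized UMI counts per gene and cell, and each cell's name gives its library and its assigned class or cluster; per the submitters' processing notes the tools included bcl2fastq 2.17.1.14 and STAR 2.5.0a, with the build mm10. Cells had 430 or more genes. The 40 genes and both companion lists were chosen with earlier results of these data known. Counts were summed per library and class with at least 10 cells, scaled to CPM, and tested with edgeR 4.0.16 (R 4.3.3; TMM, filterByExpr, quasi-likelihood, 1 fit per class over 4 groups, Benjamini-Hochberg over all genes of a class) and, as an alternative, DESeq2 1.42.0. Neurons entered from 2, 4, 3 and 5 libraries of seizure, immobilization, odor and naive mice, the other classes from 2, 4, 4 and 5, and mural cells from 2, 3, 3 and 4. Possible doublets were not called; an alternative left out the 5% deepest cells of a class. Named genes were the 5 of lowest p in neurons per comparison, genes led by another class than neurons, the highest and lowest of each family in neurons, and the 8 most uneven over clusters among those with 100 or more UMIs. Intervals cover counting error only. The scripts were tested on simulated data. Some genes are not reported here singly, though totals and counts include them. A table of conventionally dissociated cells was not used here.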

Additional observations from a re-analysis of the deposited data

Results flagged for a closer look

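In 7 of the 15 groups of libraries looked at, 1 library stood apart from the rest of its group. Chance gives about 1 in 20 only for normal values of equal spread. The libraries do not meet this, with 23479 neuron UMIs in naive 5 and 36950 in immobilization 4 against 790923 in naive 1. The genes were also picked for low p, so the 7 cannot be set against that rate. In neurons, immobilization 4 (15 cells) was far from the other 3 libraries for Gabra2 (217 CPM, the highest), Grik2 (108 CPM, the highest) and Gria3 (27.1 CPM, the lowest). Naive 5 (10 neurons and 93 astrocytes) was the highest of its group for Gabra2 in neurons (426 CPM), Grik2 in neurons (85.2 CPM, from 2 UMIs) and Grm3 in astrocytes (344 CPM). Naive 1 was the highest for Grin1 in neurons, at 140.3 CPM.

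In 6 of 18 pairs of gene and comparison, every library of a group lay on one side of the naive mean in astrocytes and on the other side in neurons. Among all genes tested in both classes, the same held for 9.08% of such pairs, and for 18.2% after seizure, where a group has 2 libraries. The genes of the 18 pairs were picked for a low p in these same data, which favors libraries on 1 side of naive. Their count is therefore not comparable with the share over all genes. The difference between the classes was not tested, and no value passed the threshold in either class. The log2 fold changes in astrocytes and in neurons were 0.59 and -0.57 for Grin1 after seizure. For Gria3 they were 0.37 and 0.00 after seizure (the naive neuron mean is raised by naive 5, at 383 CPM), 0.69 and -0.57 after immobilization, and 1.24 and -0.27 after odor. For Grik5 they were -0.56 and 0.39 after seizure, and -0.37 and -0.02 after odor, so that this last pair and Gria3 after seizure have fitted values of 1 sign.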

How the results depend on the processing

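The count of receptor genes past the threshold stayed 0 after seizure and after immobilization under every alternative run. After odor it was 3 with no filter on low counts (Gabra2 in neurons, Grm3 in astrocytes and Gria4 in microglia, with edgeR adjusted p 0.0303, 0.0120 and 0.0384) and 1 without the 5% deepest cells (Grm3, 0.0159). Leaving out 1 library at a time gave 0 to 1; the 1 was Grm3, without immobilization 4 (0.0454), naive 1 (0.0321) or naive 3 (0.0473). The cause was not tested. With the replicate number as a block the count was 0 in all 3 comparisons, and 136, 357 and 122 of all genes were called, against 144, 405 and 131 without it. Deviations of same-numbered libraries correlated at -0.261 to 0.187 over 18 pairs in astrocytes (4 over 0.1) and -0.183 to 0.151 over 16 pairs in neurons (5 over 0.1). Both pairs of seizure and naive were over 0.1 in each class, and all 5 such pairs in neurons hold a naive library. Pairs of unlike number were not computed beside them. The check therefore cannot show if same-numbered libraries share more than a number. The main test treats them as unpaired. Neurons led 16 genes by mean level, 14 to 15 under the alternatives, and N12 led 19 genes by library mean and 21 by sum. The smallest libraries limit what can be seen: 3 counts in the neurons of immobilization 4 and naive 5 equal 81.2 and 128 CPM.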
